A study of Mus musculus with 8 samples.

Results

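The unfolded protein response and endoplasmic reticulum (ER) quality control were followed through 31 genes in EMT6 mammary tumours, chosen by gene name from a table of 26709 genes. All 31 were in the table, 1 row each, and all 31 passed the filter on low counts that left 19718 genes for testing. All 8 tumours were grown from EMT6 cells, a transplantable line of mouse mammary carcinoma, in Balb/c hosts of the line's own strain, labelled wild type in both groups. The 4 control tumours came from animals given IgG. The other 4 came from animals given GrB-Fc-KS49, labelled Granzyme-B, a fusion protein that carries human granzyme B and, per the series title, is directed at EMP2. Animals were dosed 3 times within 10 days. A letter U closes the title of 1 library per group, IgG replicate 1 and replicate 3 of GrB-Fc-KS49, with no explanation in the sources used here. Replicate numbers only name libraries, and the labels leave unsaid whether every tumour had its own host, so the p-values reflect only how these samples vary, which may be technical in part.

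Proteins that enter the ER are folded by chaperones, and calnexin and calreticulin hold glycoproteins while disulfide bonds form. Chains that fail to fold are trimmed by mannosidases, moved back to the cytosol and degraded, a route called ER-associated degradation (ERAD). When unfolded proteins build up, 3 membrane sensors signal to the nucleus: IRE1, encoded by Ern1, splices the mRNA of Xbp1, ATF6 is cut to release a transcription factor, and PERK, encoded by Eif2ak3, slows translation and allows ATF4 to be made. Secretory tumour cells, fibroblasts and plasma cells all carry this machinery. These counts show neither splicing of Xbp1 nor cleavage of ATF6 nor phosphorylation of PERK, which set the activity of the response.

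The ER stress response element (ERSE), to which ATF6 and XBP1 bind, was sought as the letters CCAAT, 9 free bases and CCACG on either strand. It was found in the promoters of 8 members, and the stretches around it are shown. RefSeq promoters of the GRCm38.p6 build, 250 bases before to 50 after each gene's start, were at hand for 27 of the 31 members. The same letters stood in 39 of all 32851 such promoters, or 0.119%. The members were chosen as genes of the response in which ATF6 and XBP1 act, so this contrast is not independent of the choice. Capitals mark the fixed letters of an element on the strand of the gene, 5′ to 3′, and an element on the opposite strand reads CGTGG first and ATTGG after it.
Hspa5, chr2:34772010-34772058, plus strand: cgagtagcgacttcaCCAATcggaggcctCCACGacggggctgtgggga
Hsp90b1, chr10:86705623-86705671, minus strand: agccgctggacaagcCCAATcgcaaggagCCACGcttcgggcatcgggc
Hsp90b1, chr10:86705518-86705566, minus strand: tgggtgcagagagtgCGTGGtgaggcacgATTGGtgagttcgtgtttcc
Calr, chr8:84847060-84847108, minus strand: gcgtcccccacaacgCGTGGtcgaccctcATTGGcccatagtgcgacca
Canx, chr11:50325785-50325833, minus strand: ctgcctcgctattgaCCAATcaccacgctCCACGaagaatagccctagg
Pdia6, chr12:17266476-17266524, plus strand: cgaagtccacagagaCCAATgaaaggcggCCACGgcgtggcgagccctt
Dnajc3, chr14:118937812-118937860, plus strand: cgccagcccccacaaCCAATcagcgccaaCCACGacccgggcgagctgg
Creld2, chr15:88819505-88819553, plus strand: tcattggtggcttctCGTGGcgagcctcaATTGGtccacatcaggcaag
Syvn1, chr19:6046517-6046565, plus strand: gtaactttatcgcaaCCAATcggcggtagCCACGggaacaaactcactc
Herpud1, chr8:94386302-94386402, plus strand: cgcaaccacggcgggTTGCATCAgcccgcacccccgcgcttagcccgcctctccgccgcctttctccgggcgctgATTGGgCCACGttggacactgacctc
Hsp90b1 held 2 copies. The stretch of Herpud1 shows instead the related ERSE-II, which is ATTGG, 1 free base and CCACG, and upstream of it the ATF4 response letters TGATGCAA on the opposite strand. ERSE-II stood in 2 member promoters, Herpud1 and Dnajb11 (in the latter after the start, not shown), and in 0.0365% of all promoters. The letters TGATGCAA stood in 0.895% of all promoters and, among members, in Herpud1 alone, while the XBP1 letters TGACGTGG stood in 0.676% of all promoters and in 0 of the 27. No element overlapped another in these promoters, and a match or its absence describes only the letters in this window.

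Levels were expressed as counts per 1000000 (CPM) with TMM scaling between libraries, which trims the genes that differ most, and compared with edgeR's quasi-likelihood test. Fold changes are log2 of GrB-Fc-KS49 over IgG with their standard error (SE), and p-values were adjusted over all 19718 genes by Benjamini-Hochberg, with a call at an adjusted p under 0.05. Libraries held 74.0 to 82.6 M estimated counts, and the lowest mean of any member was 21.02 CPM. In counts from whole tumours, fewer cells of a type and less RNA per cell cannot be told apart. GrB-Fc-KS49 replicate 1 stood apart from the other treated tumours in these genes. It was the highest treated library in 12 members and the lowest in 15 of the 31. Its median absolute deviation from the control mean was 0.36 on the log2 scale, against 0.14 to 0.18 in the other 3 treated libraries and 0.06 to 0.09 in controls. Neither measure was taken over all genes tested, so whether this was particular to the members is not known. By this test 0 of the 31 members and 0 of all 19718 genes (0.0% in either direction) passed, the smallest adjusted p being 0.0619. That smallest value was shared by 1494 genes. DESeq2 called 4708 genes, among them 2 members higher (Manf and Os9) and 7 lower (Ern1, Atf6, Dnajb9, Canx, Sel1l, Edem1 and Edem3), against 11.4% and 12.5% of all genes and 11.5% and 20.4% of those at a mean of 10 CPM or more. With limma-voom and sample weights 1 member, Edem3, was lower and 0 higher, against 4.08% and 2.34% of all genes.

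At an unadjusted p under 0.05 edgeR placed 5 members higher (16.1%) and 9 lower (29.0%) after GrB-Fc-KS49, against 17.3% and 17.8% of all genes tested. Among the 9902 genes at a mean of 10 CPM or more, the range in which all members lie, the shares were 15.2% higher and 28.3% lower, so the members' counts were near those of other genes at such levels. That comparison was added after the data were seen. All 4 treated libraries lay above all 4 controls in 5 members and below them in 10, against 10.3% and 15.3% of all genes and 11.3% and 24.1% of those at 10 CPM or more. On the deposited CPM, scaled by library totals, 7 members rather than 10 lay wholly below, since Ern1, Eif2ak3 and Hspa5 then overlapped, and Manf lay above in place of Derl2. The shares of all genes on that scale were not counted. The median log2 fold change was -0.12 over the members, 0.03 over all genes tested and -0.06 over genes at 10 CPM or more. Upper quartile scaling turned the split of 5 higher and 9 lower into 8 and 6, a stricter filter on low counts into 7 and 7, and removal of the trends with transcript length and GC content, described with the lengths, into 1 and 8. Without both U libraries it was 2 and 5, against 13.9% and 13.1% of all genes, and the median was 0.00. Leaving out IgG replicate 1 left 3 lower, IgG replicates 2 or 3 left 3 or 2 higher, and GrB-Fc-KS49 replicate 2 gave 8 higher. Shares over all genes were not counted for these fits, nor for the other scaling and the stricter filter. At an unadjusted p, shares among genes at 10 CPM or more were counted in the main fit alone. The median was -0.05 without IgG replicate 4, -0.07 without IgG replicate 1, -0.08 without IgG replicate 2 and -0.02 without GrB-Fc-KS49 replicate 3.

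**Figure D1:**
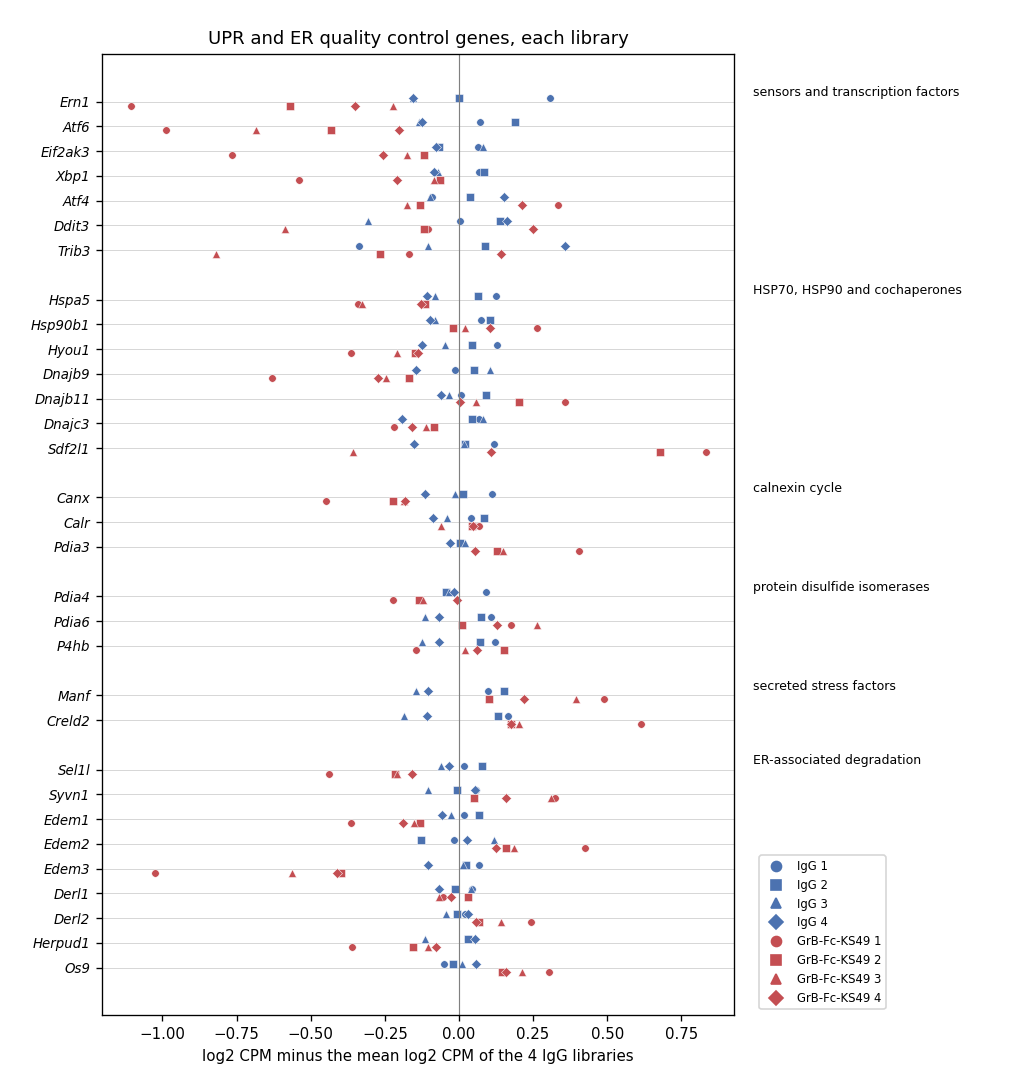
Each point is 1 library's log2 CPM minus the mean log2 CPM of the 4 IgG libraries (horizontal axis), for the 31 genes grouped by role (vertical axis), with IgG in blue, GrB-Fc-KS49 in red and a marker shape per replicate. GrB-Fc-KS49 replicate 1 (red circles) stands farthest from the controls in most genes, and Ern1, Atf6 and Edem3 spread to the left of all controls.

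Of the 15 members whose groups did not overlap, GrB-Fc-KS49 replicate 1 was the most extreme treated library in all 15, a count not made over all genes. Without it edgeR called 1260 genes, 2.23% of those tested higher and 4.09% lower, with Edem3 as the 1 member, lower, and the members at an unadjusted p under 0.05 were 2 higher and 9 lower, against 12.3% and 15.7% of all genes. For this fit the shares among genes at 10 CPM or more were not counted. Without GrB-Fc-KS49 replicate 4, which lay nearest the controls in Atf6, edgeR called 3447 genes and 3 members, Edem3, Atf6 and Sel1l, all lower, against 7.12% of all genes called higher and 10.0% lower.

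Of the 3 sensor genes, Ern1, Atf6 and Eif2ak3, the group means were lower in GrB-Fc-KS49 tumours and no treated library reached the lowest control on the TMM scale, with 0 passing the test over all genes. On the deposited CPM this separation held in Atf6 alone. On the TMM scale 24.1% of all genes at 10 CPM or more lay wholly below controls. Ern1, the IRE1 kinase and endoribonuclease (ENSMUSG00000020715, chromosome 11, 106285476 to 106378678, minus strand, GRCm39), was at 82.5, 66.6, 59.9 and 59.9 CPM in IgG replicates 1 to 4. In GrB-Fc-KS49 replicates 1 to 4 it was at 30.9, 44.9, 57.0 and 52.3 CPM. The log2 fold change was -0.54 ± 0.19 (SE, edgeR adjusted p = 0.0898), with replicate 3 close under the lowest control and replicate 1 lowest. Atf6, the sensor that becomes a transcription factor (ENSMUSG00000026663, chromosome 1, 170532243 to 170695340, minus strand), was at 107, 116, 92.4 and 93.1 CPM in controls. It was at 51.1, 75.2, 63.2 and 88.2 CPM in treated tumours, where replicate 4 lay close under the lowest control and the other 3 further down. Its log2 fold change was -0.55 ± 0.16 (edgeR adjusted p = 0.0659). Eif2ak3, the PERK kinase (ENSMUSG00000031668, chromosome 6, 70821499 to 70882229, plus strand), was at 24.3, 22.1, 24.6 and 22.0 CPM in controls and at 13.7, 21.4, 20.6 and 19.5 CPM in treated tumours. The groups touched nearly, with only replicate 1 far below, and the log2 fold change of -0.31 ± 0.14 (edgeR adjusted p = 0.147) became -0.18 without that replicate.

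The transcription factors downstream of the sensors showed smaller differences that overlapped between groups. Xbp1, whose spliced form drives chaperone and ERAD genes, was at 137, 138, 124 and 123 CPM in controls and at 89.7, 125, 123 and 113 CPM in treated tumours, so that replicates 2 and 3 reached the control range (log2 fold change -0.21 ± 0.11, edgeR adjusted p = 0.195). Atf4, translated when PERK is active, was at 374, 409, 373 and 443 CPM in controls. It was at 502, 364, 353 and 462 CPM in treated tumours, where replicates 1 and 4 lay above every control and replicates 2 and 3 below every control (log2 fold change 0.07 ± 0.13, edgeR adjusted p = 0.71). Ddit3, which encodes the pro-apoptotic factor CHOP, was at 29.1 ± 6.72 CPM against 31.7 ± 4.47 CPM (SD over 4 libraries each). Trib3, a pseudokinase induced by ATF4 and CHOP, was at 33.6, 45.1, 39.5 and 54.3 CPM in controls and at 37.76, 35.27, 24.03 and 46.81 CPM in treated tumours. For Ddit3 and Trib3 the lowest of all 8 libraries was GrB-Fc-KS49 replicate 3, and the same held for Atf4, while replicate 4 lay above the control mean in each. Of 24 further genes of the integrated stress response, 14 also had replicate 3 as the lowest of the 8 libraries, and the next most was 3. Replicate 3 is the treated library with the U in its title, and the share of all genes lowest in it was not counted. The span of Ddit3 is shared with Mars1 on the opposite strand, and no source used here says whether counting used strand. Of the 7 sensors and factors 6 had lower treated means, 2 of them at an unadjusted p under 0.05, and the median log2 fold change was -0.26. These 2 are 28.6% of the 7, near the 28.3% of genes at 10 CPM or more that were lower by that measure.

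**Figure D2:**
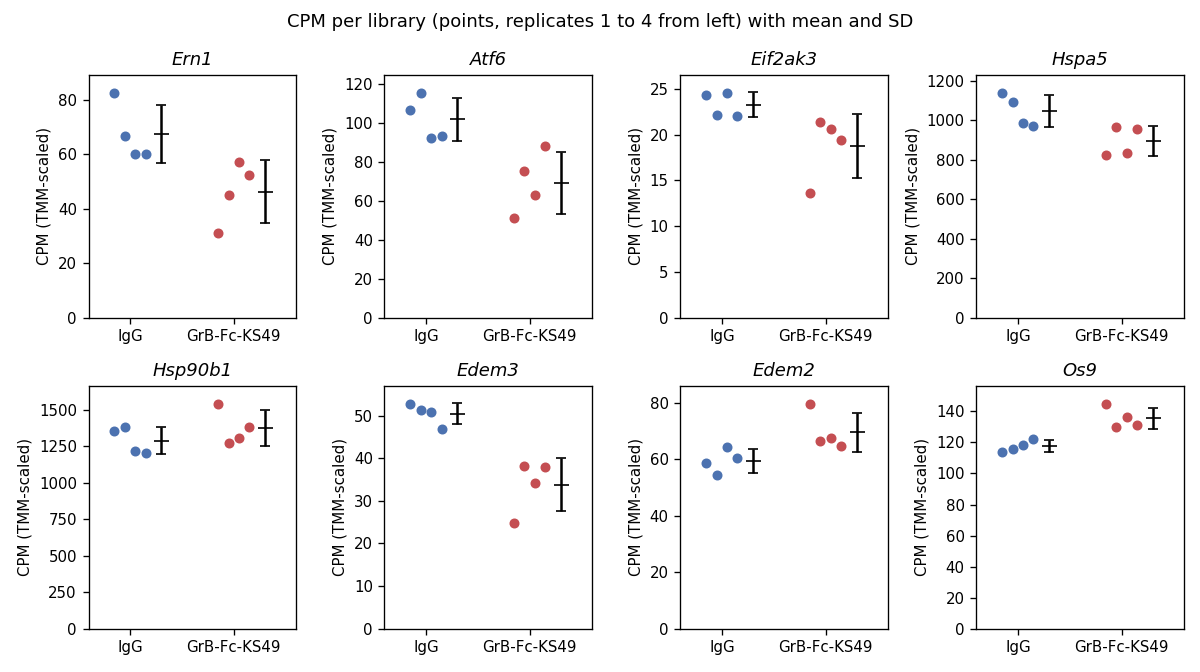
TMM-scaled CPM (vertical axis, from 0) of 8 genes in the IgG (blue) and GrB-Fc-KS49 (red) libraries, with replicates 1 to 4 from left to right in each group and the mean and SD (n = 4) in black. Ern1, Atf6, Eif2ak3, Hspa5 and Edem3 have every treated point under every control on this scale (Ern1, Eif2ak3 and Hspa5 overlap on the deposited CPM), Edem2 and Os9 have every treated point above, and Hsp90b1 overlaps.

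Among the 7 genes of the ER HSP70 and HSP90 systems, 3 had treated libraries wholly below controls on the TMM scale and the HSP90 gene itself overlapped. Of genes at 10 CPM or more 24.1% lay wholly below. Hspa5, which encodes BiP, the ER HSP70 that binds unfolded chains and restrains the sensors (ENSMUSG00000026864, chromosome 2, 34661982 to 34667559, plus strand), was at 1140.2, 1094, 989 and 971 CPM in controls. In treated tumours it was at 826, 967, 834 and 957 CPM, where the highest treated library stood just under the lowest control, an order that did not hold on the deposited CPM (log2 fold change -0.23 ± 0.09, edgeR adjusted p = 0.111). Hsp90b1, which encodes GRP94, the ER HSP90 (ENSMUSG00000020048, chromosome 10, 86526073 to 86541373, minus strand), was at 1353, 1382, 1214 and 1199 CPM in controls and at 1541, 1268, 1304 and 1380.0 CPM in treated tumours, with only replicate 1 above every control (log2 fold change 0.09 ± 0.09, edgeR adjusted p = 0.465). The ratio of Hspa5 to Hsp90b1 counts within a library, which no scaling between libraries can alter, was 0.843, 0.792, 0.815 and 0.810 in controls. It was 0.536, 0.763, 0.639 and 0.693 in treated tumours, a pair chosen after its values were seen. The groups did not overlap in this ratio, with the smallest distance in replicate 2. With length and GC trends removed the log2 fold changes were -0.12 ± 0.09 for Hspa5 and 0.14 ± 0.11 for Hsp90b1.

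Of the partners of BiP, Hyou1 and Dnajb9 lay lower and Dnajb11 and Sdf2l1 had higher means. Hyou1, an HSP70-like exchange factor for BiP, was at 225.84, 212.85, 199.76 and 189.40 CPM in controls and at 160.5, 186, 179 and 188 CPM in treated tumours, without overlap but with replicates 2 and 4 just under the lowest control. Dnajb9, the cochaperone ERdj4, was at 32.5, 34.1, 35.4 and 29.7 CPM in controls and at 21.2, 29.3, 27.7 and 27.2 CPM in treated tumours, again without overlap and with replicate 1 lowest (log2 fold change -0.32 ± 0.11, edgeR adjusted p = 0.0841). Dnajc3, the cochaperone p58IPK that also inhibits PERK, was at 114 ± 4.61 CPM against 126 ± 10.8 CPM (SD over 4 libraries), with treated values inside or just under the control range. Dnajb11, the cochaperone ERdj3, was at 98.8, 105, 96.1 and 94.2 CPM in controls and at 126, 113, 102 and 98.5 CPM in treated tumours, where replicates 1 and 2 lay above every control. Sdf2l1, which works with ERdj3, was at 24.12, 22.53, 22.49 and 20 CPM in controls. It was at 39.59, 35.60, 17.33 and 23.96 CPM in treated tumours, a wide spread in which replicates 1 and 2 were above all controls, replicate 3 was below all of them and replicate 4 was near the highest control. Its log2 fold change of 0.39 ± 0.24 (edgeR adjusted p = 0.266) became 0.20 without replicate 1 and 0.57 without replicate 3.

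In the calnexin cycle the membrane lectin had lower values in treated tumours, the soluble lectin like values and the isomerase higher ones, with 0 of 3 past the test over all genes. Canx, the membrane-bound calnexin (ENSMUSG00000020368, chromosome 11, 50184788 to 50216500, minus strand), was at 688, 643, 631 and 588 CPM in controls and at 466, 546, 560.5 and 561 CPM in treated tumours, without overlap (log2 fold change -0.26 ± 0.08, edgeR adjusted p = 0.079). Calr, the soluble calreticulin, was at 1173, 1211, 1111 and 1076 CPM in controls and at 1195, 1177, 1095 and 1179 CPM in treated tumours, every treated value within the control range. The log2 fold change of Calr was 0.02 ± 0.07. Pdia3, the ERp57 isomerase that both lectins recruit (ENSMUSG00000027248, chromosome 2, 121244256 to 121269168, plus strand), was at 709, 709, 718 and 693 CPM in controls, which spanned a narrow range, and at 936, 772, 784 and 733 CPM in treated tumours, all above it. Its log2 fold change was 0.19 ± 0.08 (edgeR adjusted p = 0.148) and 0.11 without replicate 1. The count ratio of Canx to Pdia3, chosen after its values were seen, spanned 0.849 to 0.970 across controls and 0.498 to 0.766 across treated libraries. Since Canx lay wholly below controls and Pdia3 wholly above, their ratio had to separate the groups and adds no evidence. With length and GC trends removed Canx was at -0.09 ± 0.09 and Pdia3 at 0.20 ± 0.09.

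The other protein disulfide isomerases, which form and reshuffle disulfide bonds, differed little. Pdia4 (ERp72) was at 217 ± 13.5 CPM against 236 ± 10.4 CPM, Pdia6 (P5) at 513 ± 37.5 CPM against 465 ± 34.8 CPM and P4hb, the archetypal isomerase and a subunit of prolyl hydroxylase, at 1214 ± 103 CPM against 1195 ± 95.3 CPM (SD over 4 libraries each). The groups overlapped in all 3, and their log2 fold changes were -0.12 ± 0.07, 0.14 ± 0.08 and 0.02 ± 0.09 (SE). Replicate 1 was the lowest treated library in Pdia4 and P4hb, and replicate 3 the highest in Pdia6.

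Both genes for secreted stress factors had higher treated means at an unadjusted p under 0.05, as did 15.2% of genes at 10 CPM or more. Manf, a resident ER protein that is secreted under stress (ENSMUSG00000032575, chromosome 9, 106715511 to 106769178, minus strand), was at 204, 212, 173 and 178 CPM in controls and at 268, 205, 251 and 222 CPM in treated tumours. Replicates 1, 3 and 4 lay above every control and replicate 2 within their range (log2 fold change 0.30 ± 0.11, edgeR adjusted p = 0.0908). Its span is shared with Dcaf1 on the opposite strand and Rbm15b on the same strand. Creld2, an ER protein with disulfide isomerase activity, was at 62.7, 61.3, 49.2 and 51.9 CPM in controls and at 85.7, 63.3, 64.5 and 63.2 CPM in treated tumours. All treated libraries of Creld2 lay above all controls, replicates 2, 3 and 4 only narrowly, and the log2 fold change of 0.30 ± 0.13 (edgeR adjusted p = 0.135) became 0.18 without replicate 1. With length and GC trends removed it turned to -0.06 ± 0.11, and that of Manf was 0.18 ± 0.12.

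ERAD genes divided evenly, with 3 of 9 higher and 3 lower at an unadjusted p under 0.05. Of genes at 10 CPM or more, 15.2% were higher and 28.3% lower. The mannosidase-like EDEM genes, whose proteins trim and mark misfolded glycoproteins for export, went in different directions. Edem3 (ENSMUSG00000043019, chromosome 1, 151631122 to 151697802, plus strand) was at 52.9, 51.4, 50.9 and 47.0 CPM in controls and at 24.8, 38.3, 34.1 and 37.9 CPM in treated tumours, so that the highest treated library was well under the lowest control. It had the lowest log2 fold change of the 31 genes, -0.58 ± 0.13 (edgeR adjusted p = 0.0619, a value shared by 1494 genes). Its adjusted p ran from 0.00414 by DESeq2 to 0.197 over the alternatives, and leaving out 1 library moved the log2 fold change only between -0.64 and -0.46. Edem1 (ENSMUSG00000030104, chromosome 6, 108805602 to 108836317, plus strand) was at 168, 174, 163 and 159.9 CPM in controls and at 129, 152, 149.6 and 146 CPM in treated tumours, also without overlap (log2 fold change -0.21 ± 0.07). Edem2 (ENSMUSG00000038312, chromosome 2, 155543597 to 155571395, minus strand) was at 58.6, 54.2, 64.4 and 60.4 CPM in controls and at 79.6, 66.2, 67.4 and 64.7 CPM in treated tumours, all above the controls, with replicate 4 just above the highest. Its log2 fold change was 0.23 ± 0.09 (edgeR adjusted p = 0.111). Within libraries the count ratio of Edem3 to Edem2, chosen after its values were seen, lay between 0.777 and 0.947 in controls and between 0.312 and 0.586 after treatment. With Edem3 wholly below controls and Edem2 wholly above, this ratio could not have overlapped between groups and adds no evidence. The transcript of Edem3 (6.33 kb) is longer than that of Edem2 (2.29 kb), and with length and GC trends removed Edem3 was at -0.35 ± 0.10 and Edem2 at 0.06 ± 0.09.

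The retrotranslocation complex showed a like division. Sel1l, the scaffold of the HRD1 ligase (ENSMUSG00000020964, chromosome 12, 91772817 to 91815931, minus strand), was at 129.8, 135, 123 and 125 CPM in controls and at 94.7, 110.3, 111 and 115 CPM in treated tumours, without overlap (log2 fold change -0.25 ± 0.08, edgeR adjusted p = 0.0682). Syvn1, the HRD1 ubiquitin ligase itself, was at 50.7, 48.4, 45.3 and 50.5 CPM in controls and at 61.0, 50.4, 60.5 and 54.4 CPM in treated tumours, where only replicate 2 lay within the control range (log2 fold change 0.21 ± 0.08). Os9, a lectin that hands glycoproteins to that complex (ENSMUSG00000040462, chromosome 10, 126931519 to 126957000, minus strand), was at 114, 116, 119 and 122 CPM in controls and at 145, 130.0, 136 and 131 CPM in treated tumours. Every treated value of Os9 was above every control, and its log2 fold change was 0.21 ± 0.06 (edgeR adjusted p = 0.0684). By DESeq2 its adjusted p was 0.00597, and over the alternatives it ran from 0.00597 to 0.675. The ratio of Sel1l to Os9 counts, chosen after its values were seen, ranged from 1.02 to 1.17 in controls and from 0.653 to 0.874 after treatment. Here too the separation was fixed in advance, as Sel1l lay wholly below controls and Os9 wholly above. The transcript of Sel1l (6.30 kb) is longer than that of Os9 (2.63 kb), and with length and GC trends removed their log2 fold changes were -0.05 ± 0.07 and 0.05 ± 0.08.

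Of the remaining ERAD genes, Derl1, a channel component, was nearly level, at 129 ± 3.97 CPM against 132 ± 4.84 CPM (SD over 4 libraries; log2 fold change -0.03 ± 0.06). Its relative Derl2 was at 50.6, 49.7, 48.4 and 50.9 CPM in controls and at 59.1, 52.3, 55.1 and 52.0 CPM in treated tumours, above the controls in every library although only narrowly in replicates 2 and 4 and not on the deposited CPM. The span of Derl2 is shared with Mis12 on the opposite strand. Herpud1, an adaptor of the ligase complex and a target of both ATF6 and ATF4, was at 81.8, 81.7, 74.0 and 83.1 CPM in controls and at 62.4, 71.9, 74.6 and 75.9 CPM in treated tumours, where replicates 1 and 2 lay under every control (log2 fold change -0.17 ± 0.08, edgeR adjusted p = 0.161).

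**Figure D3:**
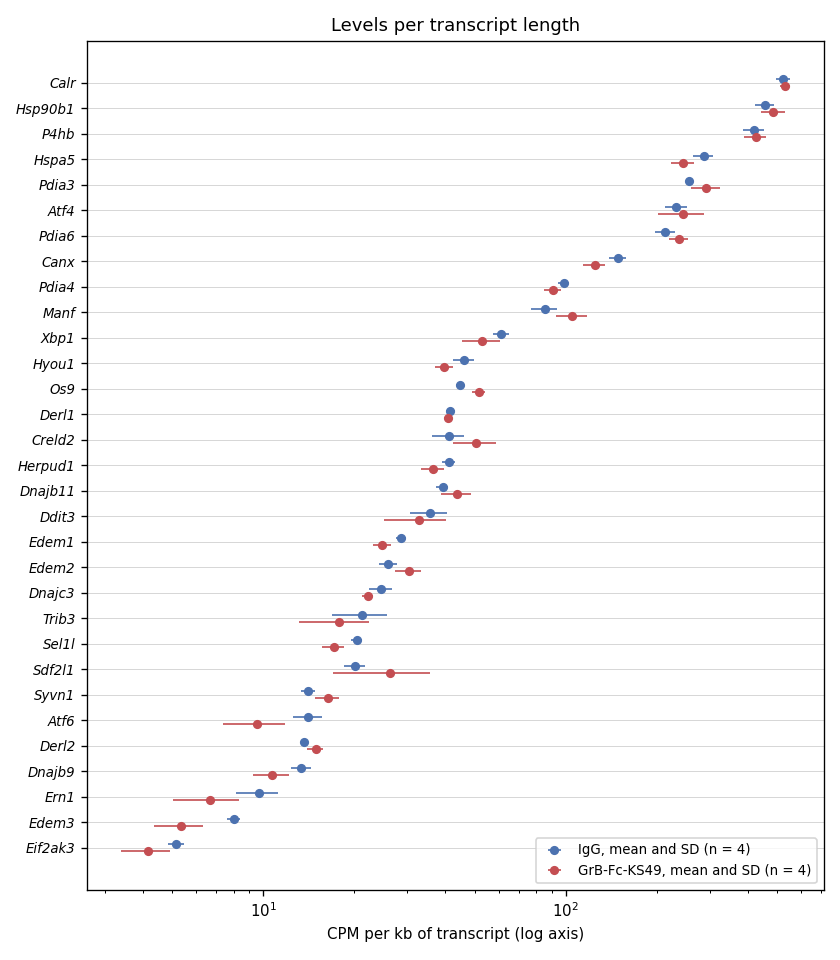
Mean level with SD (n = 4) of each gene per kb of transcript (horizontal axis, log scale, CPM per kb), in IgG (blue) and GrB-Fc-KS49 (red) tumours, ordered by the IgG level. Calr, Hsp90b1 and P4hb stand at the top, and Ern1, Edem3 and Eif2ak3 at the bottom in both groups.

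Per length of transcript, Calr, Hsp90b1, P4hb, Hspa5 and Pdia3 were the most abundant, Atf4 came next, and Ern1, Edem3 and Eif2ak3 were the least. In controls Calr was at 523 ± 27.9 CPM per kb, Hsp90b1 at 456 ± 33.1, P4hb at 418 ± 33.3, Hspa5 at 286 ± 22.2 and Pdia3 at 255 ± 3.76 CPM per kb (SD, n = 4). The intervals of 1 SD overlapped between Hsp90b1 and P4hb, between Atf4 and Pdia6 and between Ern1 and Edem3. Both genes of a pair were measured in the same libraries, so this overlap does not test their order. At the low end stood Ern1 at 9.68 ± 1.53, Edem3 at 7.99 ± 0.398 and Eif2ak3 at 5.15 ± 0.304 CPM per kb, while Atf6 was at 14.1 ± 1.54 and Xbp1 at 61.3 ± 3.78 CPM per kb. These values rest on 1 coding transcript per gene from GENCODE M21.

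The presence of an ERSE did not go with 1 direction. Of the 8 members whose promoters are shown with that element, 5 had higher treated means and 3 lower, 2 in each direction at an unadjusted p under 0.05 (Creld2 and Syvn1 higher, Hspa5 and Canx lower). Their log2 fold changes ran from -0.26 in Canx to 0.30 in Creld2, with a median of 0.06 against 0.03 for all genes. Herpud1, with ERSE-II and the ATF4 letters, was at -0.17 ± 0.08, while Dnajb11, with ERSE-II after its start, was at 0.16 ± 0.09.

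Fold changes of the members were lower the longer their transcripts, as in all coding genes. All 9 members with a transcript over 4 kb had lower treated means (Ern1, Atf6, Eif2ak3, Hyou1, Dnajc3, Canx, Sel1l, Edem1 and Edem3), and 72.1% of 4729 coding genes over 4 kb did. Of 18 members under 3 kb 12 had higher treated means, against 69.2% of 7136 coding genes. Spearman's rho between log2 fold change and transcript length was -0.55 across the 31 members and -0.46 across 14439 coding genes, and with GC content it was 0.39 and 0.30. These are correlations across genes that share the same 8 libraries, and genes are not independent replicates. Edem3, Atf6 and Ern1 lay below the 25th percentile of coding genes of like length, and so did the shorter Dnajb9, Ddit3, Xbp1, Trib3 and Herpud1. By definition 25% of coding genes lie below it.

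**Figure D4:**
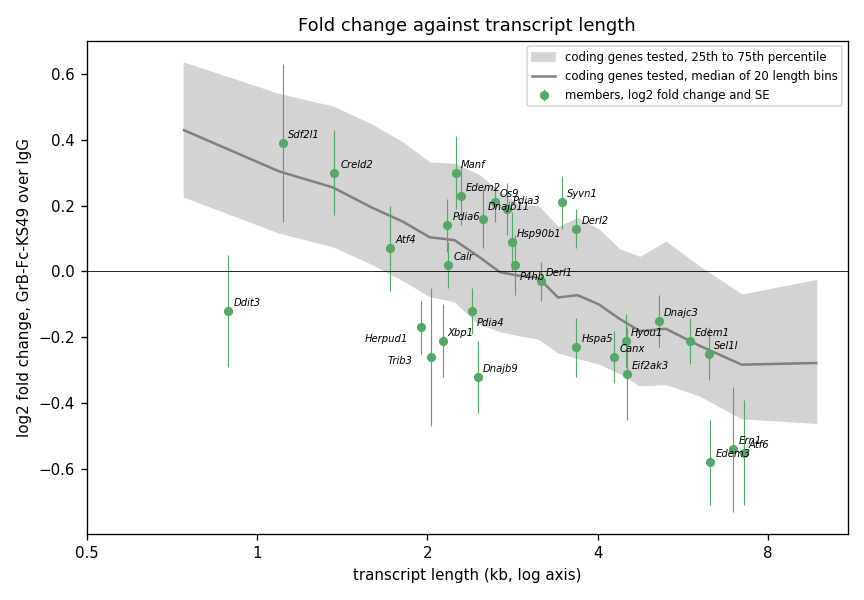
The log2 fold change with SE of the 31 genes (green) against transcript length in kb (log axis), over the median (grey line) and the 25th to 75th percentile (grey band) of coding genes tested in 20 bins of length. Long transcripts lie lower both among members and among all coding genes, and Edem3, Ern1, Atf6, Dnajb9, Ddit3, Xbp1, Trib3 and Herpud1 lie under the band.

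When each library's smooth trends with transcript length and GC content were removed, a correction added after the data were seen, 6 members changed sign and 20 had a smaller log2 fold change in size. On the 14486 genes with both values, it placed 1 member higher (Derl2) and 8 lower at an unadjusted p under 0.05, against 7.96% and 13.9% of those genes. The shares among genes at 10 CPM or more, the range of the members, were not counted for this fit. Edem3 was then at -0.35 ± 0.10 (SE), Ern1 at -0.38 ± 0.16, Atf6 at -0.31 ± 0.13, Dnajb9 at -0.28 ± 0.11 and Hyou1 at -0.20 ± 0.09, all 5 at an unadjusted p under 0.05 before and after. Sel1l moved from -0.25 to -0.05, Edem1 from -0.21 to -0.01, Canx from -0.26 to -0.09 and Creld2 from 0.30 to -0.06. In Ddit3, Xbp1 and Herpud1, whose transcripts run from 0.89 to 2.13 kb, the values moved away from 0, to -0.56 ± 0.23, -0.39 ± 0.14 and -0.37 ± 0.13. Removal shifted the median of those genes from 0.03 to -0.05. By edgeR 0 genes passed after it, at an adjusted p, of 14486.

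**Figure D5:**
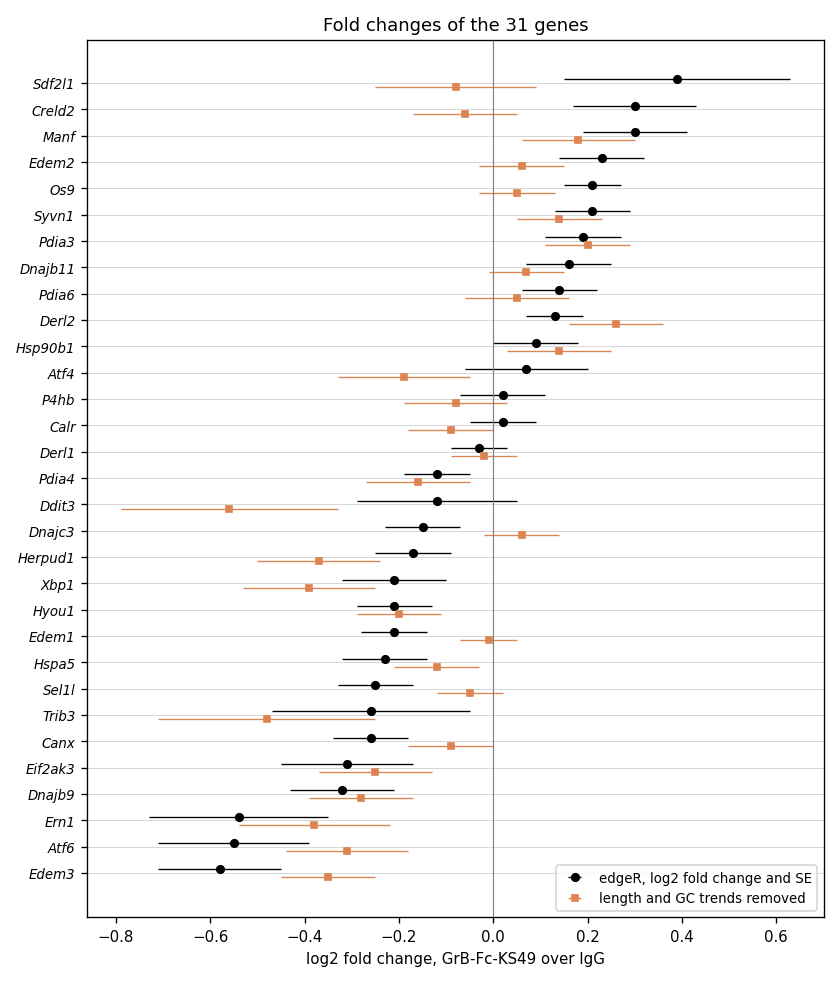
Log2 fold change of GrB-Fc-KS49 over IgG with SE (horizontal axis) for the 31 genes, as fitted by edgeR (black circles) and after removal of each library's trends with transcript length and GC content (orange squares). Edem3, Atf6 and Ern1 remain the lowest long genes, while Sel1l, Edem1, Sdf2l1 and Creld2 move to near 0.

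The other genes of the pathway, in 6 lists, held 115 tested genes, of which edgeR called 0. At an unadjusted p under 0.05 it placed 23 higher (20%) and 31 lower (27.0%), against 17.3% and 17.8% of all genes and 15.2% and 28.3% of those at 10 CPM or more. DESeq2 called 19 higher (16.5%) and 17 lower (14.8%), against 11.4% and 12.5% of all genes and 11.5% and 20.4% of those at 10 CPM or more. With length and GC trends removed, 21 of the 24 genes named from these lists had a smaller log2 fold change in size, 6 changed sign and 7 were at an unadjusted p under 0.05 in the same direction (Erp29, Man1b1, Selenok, Herpud2, Eif2ak4, Mbtps2 and Mbtps1). Of 30 further folding and oxidation genes, 8 were higher and 4 lower at an unadjusted p under 0.05 (median log2 fold change 0.06). Treated tumours held Sdf2, a relative of Sdf2l1, at 44.5 ± 3.66 CPM against 34.2 ± 0.746 CPM and Erp29, an ER chaperone, at 176 ± 33.6 CPM against 122 ± 5.12 CPM (SD over 4 libraries), without overlap. Both are named for their small p, and 11.3% of genes at 10 CPM or more lay wholly above controls. The 4 lower genes were the thioredoxin-like Txndc11, Tmx1, Tmx3 and Tmx4. Cnpy2 and Fkbp2 had log2 fold changes of 0.27 ± 0.07 and 0.43 ± 0.11 (SE). With the trends removed Sdf2 went from 0.38 to 0.06, Cnpy2 to -0.04 and Fkbp2 to -0.09, and Erp29 from 0.53 to 0.72. Of 10 glycan processing genes 0 were higher and 5 lower (median -0.18), where 28.3% of genes at 10 CPM or more were lower, and with the trends removed Uggt1 moved from -0.27 to -0.05, Lman1 to -0.22, Ganab to -0.18 and Man1b1 to -0.19. Uggt1, the sensor that returns unfolded glycoproteins to calnexin, was at 129 ± 7.62 CPM against 156 ± 4.29 CPM, and Lman1, a cargo receptor for export, at 204 ± 31.4 CPM against 266 ± 18.0 CPM, while Ganab, a glucosidase, and Man1b1, an ER mannosidase, had log2 fold changes of -0.21 ± 0.08 and -0.16 ± 0.07, and Mlec, a lectin for newly attached glycans, was the other gene among the 5.

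Of 23 further ERAD genes 5 were higher and 9 lower at an unadjusted p under 0.05 (median -0.01). For this list and those that follow, the shares higher and lower were 17.3% and 17.8% of all genes. Of genes at 10 CPM or more they were 15.2% and 28.3%. Selenok, a selenoprotein of the degradation complex, was at 47.7 ± 5.58 CPM against 34.6 ± 1.14 CPM and Marchf6, a ubiquitin ligase of the ER membrane, at 93.7 ± 13.9 CPM against 123 ± 4.85 CPM (SD over 4 libraries), while the ligase Rnf5 and Herpud2 had log2 fold changes of 0.25 ± 0.07 and -0.31 ± 0.10. With the trends removed Selenok was at 0.32, Marchf6 at -0.17, Rnf5 at -0.09 and Herpud2 at -0.38. The 5 higher genes were Ube2j2, Selenos, Selenok, Aup1 and Rnf5. Of 24 integrated stress response genes 2 were higher, Nupr1 and Bbc3, and 6 lower (median -0.08). The kinase GCN2, encoded by Eif2ak4, was at 22.7 ± 4.23 CPM against 32.7 ± 1.20 CPM, and its substrate Eif2s1, which PERK also phosphorylates, at 138 ± 12.5 CPM against 169 ± 7.51 CPM. Ppp1r15b, a phosphatase subunit that reverses that mark, and Slc7a11, the cystine transporter, had log2 fold changes of -0.29 ± 0.08 and -0.67 ± 0.21. With the trends removed Eif2ak4 was at -0.42, Eif2s1 at -0.16, Ppp1r15b at -0.13 and Slc7a11 at -0.36.

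Of 12 further genes of the ATF6 and IRE1 arms 3 were higher and 3 lower at an unadjusted p under 0.05 (median -0.08). Both proteases that cut ATF6 had lower treated means without overlap: Mbtps2 was at 34.5 ± 6.30 CPM against 51.9 ± 2.92 CPM and Mbtps1 at 154 ± 27.0 CPM against 207 ± 10.4 CPM (SD over 4 libraries). They are named for their small p in this list, so the lack of overlap is not independent of that choice. Of genes at 10 CPM or more 24.1% lay wholly below controls. The third lower gene was Tmem33, and the 3 higher ones were Creb3, Tmbim6 and Bloc1s1. Tmbim6, an inhibitor of IRE1 and cell death, was at 754 ± 104 CPM against 589.9 ± 24.8 CPM, and Bloc1s1, whose mRNA IRE1 cleaves, had a log2 fold change of 0.51 ± 0.14. With length and GC trends taken out, Mbtps2 was at -0.42 ± 0.12, Mbtps1 at -0.40 ± 0.13, Tmbim6 at 0.20 ± 0.09 and Bloc1s1 at -0.02 ± 0.08. Of 16 translocon and signal peptidase genes 5 were higher and 4 lower (median 0.12), with Spcs1, Sec11c and Sec61b at 0.28 ± 0.07, 0.49 ± 0.13 and 0.41 ± 0.12 and Spcs3 at -0.28 ± 0.10. With the trends removed these were -0.05, 0.09, -0.03 and -0.14. The others among them were Sec62 and Ssr4, higher, and Sec61a1, Ssr3 and Tram1, lower.

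The cells that make up a tumour differ in how much ER machinery they carry, and markers of other cell types were read beside the members. Of the plasma cell markers, 5 of 6 tested genes had higher treated means, 3 of them at an unadjusted p under 0.05, against 17.3% of all genes. Their summed level was 316 to 445 CPM in treated tumours and 377 to 458 CPM in controls, most of it Txndc5, which other cells express, and Tnfrsf17 was at 0 counts in at least 1 library. All 8 T cell genes had higher means, summed at 5.09 to 56.7 CPM against 1.91 to 6.82 CPM, and 7 of 8 macrophage genes, summed at 1046 to 2262 CPM against 862 to 1088 CPM. Replicate 1, the extreme treated library in the members, held the highest T cell, macrophage and B cell sums of the 8 libraries. All 8 skeletal muscle genes were summed at 38.6 to 2348 CPM against 40.4 to 187 CPM, with the highest sum in replicate 1 and higher treated means in all. The 3 tested skin genes (of 7 measured) were carried by replicate 2, where the list summed to 2016 CPM against 6.57 to 16.3 CPM in controls, and Krtdap and Dsg1a were at 0 in at least 1 library. All 4 tested B cell genes had higher means, summed at 1.23 to 5.62 CPM against 0.653 to 1.19 CPM. All 7 adipocyte genes had higher means, summed at 62.9 to 381 CPM against 46.4 to 76.9 CPM, highest in replicate 3. Endothelial genes, 4 of 6 with higher means, summed to 176 to 269 CPM against 135 to 265 CPM. Fibroblast genes, 2 of 7 with higher means, summed to 6305 to 16907 CPM against 8822 to 14724 CPM, lowest in replicate 1, and the 8 epithelial genes, which the labelled cell type calls for, to 476 to 816 CPM against 482 to 565 CPM, all 8 with higher treated means. Among these Krt8 was at 391 to 631 CPM over the 8 libraries, while Epcam was at 2.73 to 16.02 CPM and Cldn3 at 0.138 to 1.07 CPM. Genes of cycling cells, 4 of 8 with higher means, summed to 992 to 1147 CPM against 1149 to 1182 CPM, the highest treated sum just under the lowest control. These sums were not taken on the deposited CPM. Median log2 fold changes were 2.25 in the plasma cell list, 2.66 in T cell, 2.02 in B cell and 0.33 in macrophage genes. They were 3.13 in muscle, 5.75 in skin, 1.67 in adipocyte, 0.16 in endothelial, -0.05 in fibroblast, 0.57 in epithelial and -0.03 in cycling genes. The part of these lists in the differences described was not tested.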

How the data were processed

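RNA was measured in 4 IgG and 4 GrB-Fc-KS49 tumours from total RNA. Per the labels' protocols, poly(A) libraries that mark strand were made with a KAPA Stranded mRNA-Seq kit. Reads were handled with bcl2fastq 2.19.1.403 and STAR on GRCm39, per the submitters' processing notes. Which program made the counts, on which annotation and whether by strand is not stated in what was used here, so reads of overlapping genes may be shared, which concerns 9 members. The authors deposited estimated counts and CPM, by gene. The estimated counts were rounded to whole numbers, and the authors' deposited CPM served only as an alternative.

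Genes were filtered with filterByExpr, scaled by TMM and tested with edgeR 4.0.16 (robust quasi-likelihood, R 4.3.3) between the groups, without covariates. The threshold was a p of 0.05 after Benjamini-Hochberg adjustment over all genes. The biological coefficient of variation was 27.8%. The test was tried on simulated counts with known fold changes. Errors given are SD between libraries or the SE of a log2 fold change. That SE was the absolute log2 fold change divided by the square root of the F value of edgeR's test, which shares information on variation between genes. Alternatives were other scalings and filters, DESeq2 1.42.0, limma 3.58.1, log2 of deposited CPM plus 1 or 0.25, each library left out, and the U libraries left out or modelled. Removal of smooth trends with transcript length and GC content (mgcv 1.9.3, GENCODE M21 transcripts) was added after seeing the data. The members and all gene lists were chosen with earlier results of these data known. All 31 members are described, and from each list of other pathway genes the 4 with the smallest unadjusted p, plus those behind counts of 5 or fewer. Gene ends are given as 1 less than the deposited stop. Hm13 was not analysed here.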

Additional observations from a re-analysis of the deposited data

Results flagged for a closer look

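In 110 groups of 4 libraries (the 31 members and 24 other named genes, IgG and GrB-Fc-KS49 apart), 5 held a library far from the other 3 by Dixon's criterion, and chance alone gives about 1 in 20, or 5.5. Canx in GrB-Fc-KS49 replicate 1 was at 466 CPM against 546 to 561 CPM in the other treated libraries. Creld2 in the same library was at 85.7 CPM against 63.2 to 64.5 CPM, and Mbtps1 at 113 CPM against 165 to 170.2 CPM. Dnajc3 in IgG replicate 4 was at 109.95 CPM against 129 to 133 CPM in the other controls. Herpud1 in IgG replicate 3 was at 74.0 CPM against 81.8 to 83.1 CPM.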

How the results depend on the processing

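DESeq2 called 4708 genes and 9 members, limma-voom with sample weights 1267 genes and 1 member (Edem3), where edgeR called 0. With each library left out in turn, genes called ran from 0 to 3447, members called from 0 to 3, members higher at an unadjusted p under 0.05 from 2 to 8, members lower from 3 to 11, and the members' median log2 fold change from -0.14 to -0.02. The 3447 genes and the 11 lower members both came without GrB-Fc-KS49 replicate 4. Among these fits, the share of all genes at an unadjusted p was counted only without GrB-Fc-KS49 replicate 1. Against 5 members higher and 9 lower, upper quartile scaling gave 8 higher, removal of length and GC trends 1 higher, and leaving out both U libraries 2 higher and 5 lower with a median of 0.00 against -0.12. The log2 fold change changed sign with length and GC trends removed in Atf4 (-0.19), Dnajc3 (0.06), Sdf2l1 (-0.08), Calr (-0.09), P4hb (-0.08) and Creld2 (-0.06), and in Cnpy2 (-0.04), Fkbp2 (-0.09), Rnf5 (-0.09), Bloc1s1 (-0.02), Spcs1 (-0.05) and Sec61b (-0.03). Ddit3 was at 0.00 without both U libraries, and Derl1 at 0.03 with upper quartile scaling and 0.01 with a filter of at least 1 CPM in 4 libraries. With 1 library left out, Atf4 ran from -0.02 to 0.15, Ddit3 from -0.27 to 0.01, P4hb from -0.02 to 0.08 and Derl1 from -0.04 to 0.01. The other member values kept their direction and side of the threshold in 654 cases, and 14 cases in 9 genes passed the threshold only under an alternative. On the deposited CPM 7 members rather than 10 lay wholly below controls, and the share of all genes on that scale was not counted. The cause of these differences was not tested. No paired analysis was possible because the replicate numbers follow the order of deposit and pair no samples.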
